A study of Homo sapiens with 6 samples.

Results

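The 10 genes described here encode the enzymes that make, lengthen and desaturate fatty acids, together with the phosphatidate phosphatase lipin 1, in AZ-521 cells treated with platycodon D. They were taken by gene name (ACLY, ACSS2, ACACA, FASN, SCD, ELOVL5, ELOVL6, FADS1, FADS2 and LPIN1) from a table of 58735 genes, and all 10 were found. The tested cells received 10 µM platycodon D (PD), which is a saponin from balloon flower root, for 48 h, and the control cells received its solvent DMSO for 48 h. Each group held 3 samples of the same wild-type line, whose mRNA was sequenced. The series was made to look for the mechanism by which PD acts against gastric cancer cells. Nothing in the labels says whether the samples of a group were separate cultures, so the p-values speak only to variation among these libraries and that variation could be technical.

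In lipogenesis, citrate exported from mitochondria is split by ATP citrate lyase (ACLY) into cytosolic acetyl-CoA, which acetyl-CoA synthetase (ACSS2) can also make from acetate. Acetyl-CoA carboxylase (ACACA) turns it into malonyl-CoA, fatty acid synthase (FASN) builds palmitate from both, and elongases of the ELOVL family and desaturases (SCD, FADS1, FADS2) lengthen the chain and insert double bonds. Many genes of this route are known targets of the SREBP transcription factors, which are held in the endoplasmic reticulum when sterols are plentiful and are released and cleaved when sterols are low. Tumour cells often depend on this route for membrane lipids.

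Between 15328454 and 15821524 reads over genes could be recovered in PD samples, against 14915538 to 16341687 in DMSO samples. The correlation of log2(FPKM + 1) across genes lay between 0.969 and 0.985 within groups and between 0.920 and 0.944 across groups. The deviation of a library from its group mean varied with transcript GC content to different degrees, with a Spearman rho across tested genes of 0.61, 0.02 and -0.52 in PD replicates 1 to 3, and of -0.64, 0.46 and 0.54 in DMSO replicates 1 to 3. The labels call the line a gastric cancer cell (cell banks list AZ-521 as derived from a duodenal carcinoma line), but the defining markers were nearly absent. Of 7 epithelial markers 1 (CLDN4) reached 1 FPKM in any sample, KRT18 and KRT19 were listed at 0 throughout, and the list summed to 2.67 to 3.68 FPKM in PD samples against 1.58 to 1.72 in DMSO samples. Of 9 stomach markers 1 (ATP4A) reached 1 FPKM, TFF1, TFF2 and GKN1 were at 0, and the sums were 0.860 to 1.94 FPKM in PD and 0.670 to 1.16 in DMSO samples. Among 8 intestinal markers CDX2 alone reached that level, CDX1 was at 0, and the sums were 1.75 to 1.95 FPKM in PD and 1.64 to 2.59 in DMSO samples. Of 7 fibroblast and muscle markers COL3A1, LUM and ACTA2 reached 1 FPKM, while COL1A1, COL1A2, DCN and PDGFRB stayed under it. That list summed to 55.7 to 56.8 FPKM in PD samples and 61.2 to 68.9 in DMSO samples. Most of this was COL3A1, with a mean of 40.6 FPKM in PD and 42.9 in DMSO samples. Markers of cell types rich in lipid synthesis were near 0: 6 adipocyte markers summed to 0.617 to 1.01 FPKM in PD samples and 0.259 to 0.556 in DMSO samples, with ADIPOQ, CIDEC and LPL at 0, and 6 hepatocyte markers to 0.448 to 0.777 FPKM in PD samples and 0.483 to 0.616 in DMSO samples, with TTR at 0. The 7 markers of blood and endothelium summed to 0.0772 to 0.405 FPKM in PD samples and 0 to 0.0373 in DMSO samples, with CD3E, LYZ and CDH5 at 0. CLDN4, a tight junction protein, rose by 0.83 on the log2 scale (adjusted p = 0.006, limma). Whether these markers bear on the lipogenic genes was not tested.

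PD samples held more mRNA of most of these enzymes. The tests were made with limma on log2(FPKM + 1), where FPKM is the number of fragments per kilobase of gene, scaled by a denominator the authors chose for each sample, and adjusted by the Benjamini-Hochberg method over 13579 genes with at least 1 FPKM in at least 3 samples. The filter kept 9 of the 10 genes, and ELOVL6 was below it. Of the 9, 7 rose at an adjusted p under 0.05 (ACLY, ACSS2, ACACA, FASN, SCD, ELOVL5 and LPIN1), 0 fell, and FADS1 and FADS2 did not pass; over all genes tested, 14.3% rose. SCD, FASN and LPIN1 also changed at least 2-fold, the size named in the labels, against 2.84% of all genes tested. In 8 of the 9 every PD sample lay above every DMSO sample, which held for 22.5% of all genes tested. The median log2 fold change of the 9 was 0.64, from 0.10 for FADS2 to 2.38 for SCD, beside a median of 0.00 over all genes tested. The 10 genes were chosen with earlier results of these data known, so these comparisons describe them and do not test the set. The authors' denominator was 1.00, 0.997 and 0.947 times the recovered reads over genes in PD replicates 1 to 3, against 1.03, 1.10 and 1.08 times in DMSO replicates 1 to 3. Every DMSO sample was thus divided by a larger number relative to its reads than any PD sample. Median ratio scaling of the samples moved the median log2 fold change of all genes by -0.0002. There 7 of the 9 rose, 0 fell, and SCD, FASN and LPIN1 stood at 2.38, 1.12 and 1.13. With FPKM rescaled to the recovered reads, an alternative chosen after seeing the data, the median log2 fold change of all genes moved by -0.10. On that scale 6 of the 9 rose, without ACLY, 0 fell, and SCD, FASN and LPIN1 stood at 2.26, 1.00 and 1.02. In bulk RNA, more cells of one state and more RNA per cell cannot be told apart.

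**Figure D1:**
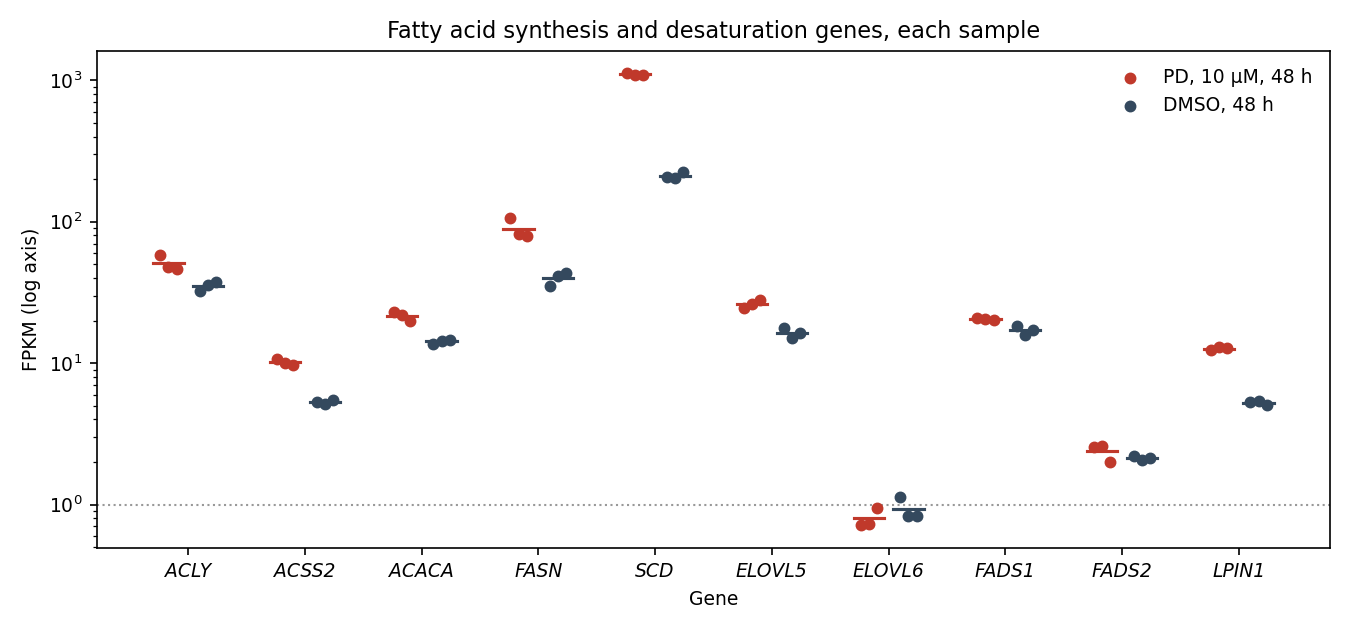
FPKM of the 10 genes in each sample on a log axis, with PD samples to the left and DMSO samples to the right of each gene name, points for the samples and a bar for the mean (n = 3 per group). The dotted line marks 1 FPKM. SCD stood above the other genes in every sample, and the points of the groups overlap for ELOVL6 and FADS2.

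Because most of these genes rose together, the RefSeq promoter windows (build GRCh38.p14) were searched over the 250 bases before each annotated start. Windows were given for 9 of the 10 genes, 16 windows in all, since several genes have more than one start; FASN had none. The motifs, on both strands, were the sterol regulatory element TCACNCCAC, the NF-Y box CCAAT, the E-box CACGTG and the GC box GGGCGG. NF-Y is a CCAAT-binding factor known to act beside SREBP at sterol-regulated genes. The sterol element, as spelled here, was in 0 of the 16 windows and in 0.883% of all 35116 windows of that length. A CCAAT box was in 7 of the 16 windows, from 5 genes (ACACA, ACLY, ACSS2, ELOVL5 and SCD), and in 32.0% of all windows. The 2 ACLY windows overlap and hold the same 2 boxes, so those are counted more than once. No CCAAT box was found for FADS1, FADS2, ELOVL6 and LPIN1. The E-box was in 1 window, that of ELOVL5, against 6.34% of all windows, and the GC box was in 12 windows of 8 genes, against 42.6%. These matches describe letters in a short window and show no binding, and the deposited values are per gene, so they cannot say which start was used. Of the genes without a box, LPIN1 rose (log2 fold change 1.13, limma), FADS1 and FADS2 did not pass, and ELOVL6 was below the filter. ACACA, which rose by 0.56, has a window with a pair, at -155 and -136. Whether the boxes bear on the change in mRNA was not tested. The windows that follow are those of SCD, ELOVL5 and ACLY, each with a pair of CCAAT boxes, without ACACA. Then come those of FADS1 and ELOVL6, which carry none, without FADS2 and LPIN1. All run 5′ to 3′ with CCAAT and its reverse complement in capitals.
SCD (chr10:100346983-100347232, + strand): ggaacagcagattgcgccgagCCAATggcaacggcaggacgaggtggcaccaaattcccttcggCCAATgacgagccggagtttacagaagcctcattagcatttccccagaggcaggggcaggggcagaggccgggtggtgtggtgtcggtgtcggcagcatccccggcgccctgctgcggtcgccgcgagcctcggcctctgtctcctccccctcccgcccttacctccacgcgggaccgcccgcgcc
ELOVL5 (chr6:53348951-53349200, - strand): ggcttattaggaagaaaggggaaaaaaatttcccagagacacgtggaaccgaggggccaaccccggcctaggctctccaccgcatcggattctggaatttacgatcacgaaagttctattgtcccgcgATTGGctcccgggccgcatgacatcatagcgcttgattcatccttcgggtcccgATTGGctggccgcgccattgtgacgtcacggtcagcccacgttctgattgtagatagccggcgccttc
ACLY (chr17:41918952-41919201, - strand): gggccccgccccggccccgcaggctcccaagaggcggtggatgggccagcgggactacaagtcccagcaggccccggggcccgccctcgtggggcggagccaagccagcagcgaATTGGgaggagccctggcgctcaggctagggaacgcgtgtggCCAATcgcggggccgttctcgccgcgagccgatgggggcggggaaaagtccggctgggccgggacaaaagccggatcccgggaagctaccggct
FADS1 (chr11:61817004-61817253, - strand): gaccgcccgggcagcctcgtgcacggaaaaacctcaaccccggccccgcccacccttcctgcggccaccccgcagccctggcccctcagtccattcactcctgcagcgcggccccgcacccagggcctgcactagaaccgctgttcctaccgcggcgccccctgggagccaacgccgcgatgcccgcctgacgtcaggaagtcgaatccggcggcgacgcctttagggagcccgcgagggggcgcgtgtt
ELOVL6 (chr4:110198616-110198865, - strand): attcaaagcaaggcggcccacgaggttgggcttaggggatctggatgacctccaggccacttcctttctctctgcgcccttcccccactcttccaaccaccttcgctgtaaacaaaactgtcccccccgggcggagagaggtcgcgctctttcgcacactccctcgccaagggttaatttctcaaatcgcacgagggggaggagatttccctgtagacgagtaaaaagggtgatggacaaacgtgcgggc
In the SCD window the CCAAT boxes began at positions -229 and -186 from the start, both on the strand of the gene. In the ELOVL5 window both lay on the opposite strand, beginning at -122 and -68, and in the ACLY window shown, one lay on each strand, at -136 and -94.

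Of the acetyl-CoA suppliers, ACSS2 changed more than ACLY. ACSS2 (ENSG00000131069, chromosome 20, 34872146 to 34927962, + strand, GRCh38 as are the positions that follow) had 10.7, 9.998 and 9.75 FPKM in PD replicates 1 to 3, against 5.34, 5.15 and 5.52 FPKM in DMSO replicates 1 to 3. Every PD sample lay well above the DMSO samples, and the groups did not overlap. The means were 10.1 ± 0.466 FPKM in PD and 5.34 ± 0.186 FPKM in DMSO samples (SD, n = 3 each), a ratio of 1.90, and ACSS2 showed a log2 fold change of 0.81 ± 0.08 (SE, adjusted p = 0.000895, limma). ACLY (ENSG00000131473, chromosome 17, 41866908 to 41930542, - strand) had 58.7, 47.7 and 46.6 FPKM in PD samples, against 32.3, 35.8 and 37.6 FPKM in DMSO samples. The groups did not overlap, with PD replicate 1 highest and DMSO replicate 1 lowest. ACLY rose by 0.52 ± 0.12 on the log2 scale (adjusted p = 0.0169, limma), but did not pass without DMSO replicate 2 (adjusted p = 0.0504), with equal FPKM totals (0.0715) or with recovered read totals (0.0559).

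ACACA, the carboxylase that commits acetyl-CoA to fatty acids, rose modestly. ACACA (ENSG00000278540, chromosome 17, 37084988 to 37406818, - strand) had 22.9, 21.95 and 19.8 FPKM in PD samples, against 13.7, 14.4 and 14.7 FPKM in DMSO samples. The lowest PD sample stood above the highest DMSO sample, and the PD samples were the more spread out. Its log2 fold change was 0.56 ± 0.09 (adjusted p = 0.00467, limma). FASN, the multi-domain synthase, changed more. FASN (ENSG00000169710, chromosome 17, 82078333 to 82098332, - strand) had 106, 81.6 and 79.1 FPKM in PD samples, against 35.1, 41.6 and 43.4 FPKM in DMSO samples. The groups lay far apart, and PD replicate 1 was well above the other PD samples. FASN averaged 88.9 ± 14.9 FPKM in PD and 40.04 ± 4.33 FPKM in DMSO samples (SD, n = 3 each), at a log2 fold change of 1.12 ± 0.14 (adjusted p = 0.00189, limma). Its transcript has the highest GC content of the 10, 65.3%, and after correction for GC its log2 fold change was 1.13 (adjusted p = 8.46e-05). The 2-fold size was missed without PD replicate 1 (0.99) and with equal FPKM totals (0.97), while the adjusted p stayed under 0.05.

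SCD, which makes oleate by placing a double bond in stearate, changed most among the 10. SCD (ENSG00000099194, chromosome 10, 100347124 to 100364834, + strand) had 1121, 1093 and 1097 FPKM in PD samples, against 207, 202 and 224 FPKM in DMSO samples, from 92301, 90013 and 88173 recovered reads in PD and 17072, 18497 and 21181 in DMSO samples. The 3 PD samples were close to each other and several times above any DMSO sample. The ratio of means was 5.23 and the log2 fold change 2.38 ± 0.09 (95% confidence interval 2.168 to 2.595, adjusted p = 2.33e-05, limma). SCD ranked 21 by log2 fold change among the 13579 genes tested, and its mean level ranked 17 among protein-coding genes in PD samples and 57 in DMSO samples. Quantile normalization, which fixes the highest values to be alike in all samples, gave 1.76. SCD alone made up 81.2% to 83.4% of the FPKM summed over the 10 genes in PD samples, against 59.8% to 61.3% in DMSO samples. The pseudogene SCDP1, a possible recipient of SCD reads, held 0.241, 0.120 and 0.123 FPKM in PD samples and 0 in all DMSO samples.

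The elongases stood at very different levels. ELOVL5, which lengthens polyunsaturated chains (ENSG00000012660, chromosome 6, 53267398 to 53349179, - strand), had 24.4, 26.1 and 27.8 FPKM in PD samples, against 17.8, 15.2 and 16.4 FPKM in DMSO samples. All PD samples were higher, and ELOVL5 rose by 0.64 ± 0.09 on the log2 scale (adjusted p = 0.00374, limma). ELOVL6, which extends palmitate to stearate (ENSG00000170522, chromosome 4, 110045846 to 110199199, - strand), had 0.714, 0.732 and 0.951 FPKM in PD samples, against 1.13, 0.836 and 0.831 FPKM in DMSO samples. The groups overlapped, and only DMSO replicate 1 exceeded 1 FPKM. These levels rest on 80, 82 and 104 recovered reads in PD and 127, 104 and 107 in DMSO samples. With no filter on low values ELOVL6 showed a log2 fold change of -0.10 ± 0.13 (adjusted p = 0.67, limma).

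The front-end desaturases FADS1 and FADS2, which work in the synthesis of long polyunsaturated fatty acids, showed smaller differences. FADS1 (ENSG00000149485, chromosome 11, 61799625 to 61829318, - strand) had 20.9, 20.4 and 20.0 FPKM in PD samples, against 18.2, 15.8 and 17.2 FPKM in DMSO samples. The groups did not overlap, but the gap was narrow. FADS1 showed a log2 fold change of 0.25 with a 95% confidence interval of 0.05 to 0.45 (adjusted p = 0.0649, limma). It passed without DMSO replicate 1 (adjusted p = 0.0481), without DMSO replicate 1 and PD replicate 3 together (0.0302), with array weights (0.00814) and after GC correction (0.0328), over a range from 0.00814 to 0.415 across 18 alternatives. FADS2 (ENSG00000134824, chromosome 11, 61792980 to 61867354, + strand) had 2.55, 2.598 and 1.98 FPKM in PD samples, against 2.20, 2.05 and 2.14 FPKM in DMSO samples. PD replicate 3 was the lowest of all, so the groups overlapped. FADS2 showed a log2 fold change of 0.10 with a 95% confidence interval of -0.16 to 0.37 (adjusted p = 0.527, limma), and of -0.01 with equal FPKM totals.

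FADS1 and FADS2 lie on opposite strands of chromosome 11 and their annotated exons share 490 bases, 4.79% of the FADS1 exons and 4.44% of the FADS2 exons. The libraries were stranded, but no source used here says whether the counting used the strand. Without it, reads in the shared bases cannot be told apart. FADS2 also shares 49 exonic bases with FEN1 on its own strand, and FADS1 80 with the microRNA gene MIR1908, which was listed at 0. For the other members, exonic overlap was found with antisense genes only, for ACLY with AC125257.2, listed at 0, and for LPIN1 with AC012456.2, at no more than 0.119 FPKM.

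**Figure D2:**
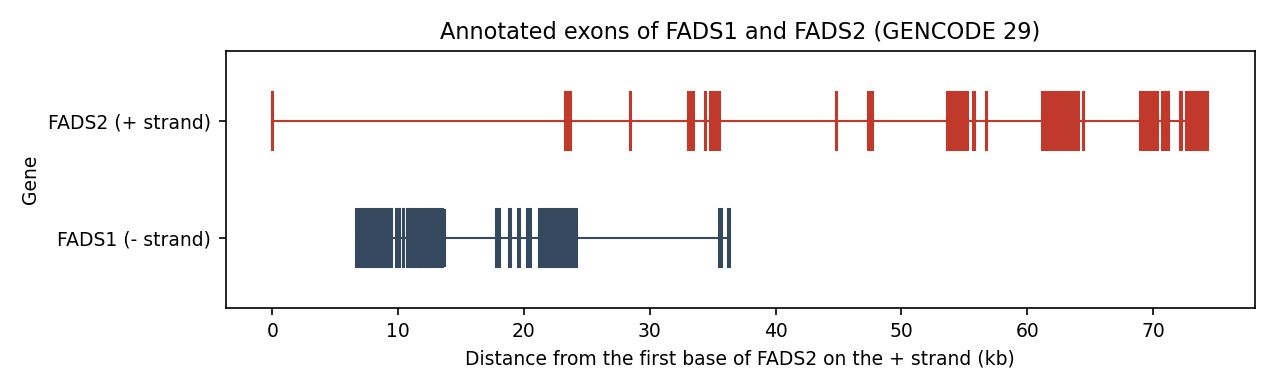
Annotated exons of FADS2 (+ strand, above) and FADS1 (- strand, below) against the distance in kb from the first base of FADS2 on the + strand, from GENCODE 29. Boxes are merged exons over all annotated transcripts. FADS1 lies within the span of FADS2, and the exons share 490 bases.

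LPIN1, whose product makes diacylglycerol from phosphatidate and also acts as a transcriptional coregulator, rose with little spread. LPIN1 (ENSG00000134324, chromosome 2, 11677595 to 11827409, + strand) had 12.3, 12.9 and 12.8 FPKM in PD samples, against 5.29, 5.38 and 5.09 FPKM in DMSO samples. Each group was tight, and the ratio of means was 2.41. Its log2 fold change was 1.13 ± 0.08 (adjusted p = 0.000218, limma), and 0.99 with equal FPKM totals, just under the 2-fold size.

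**Figure D3:**
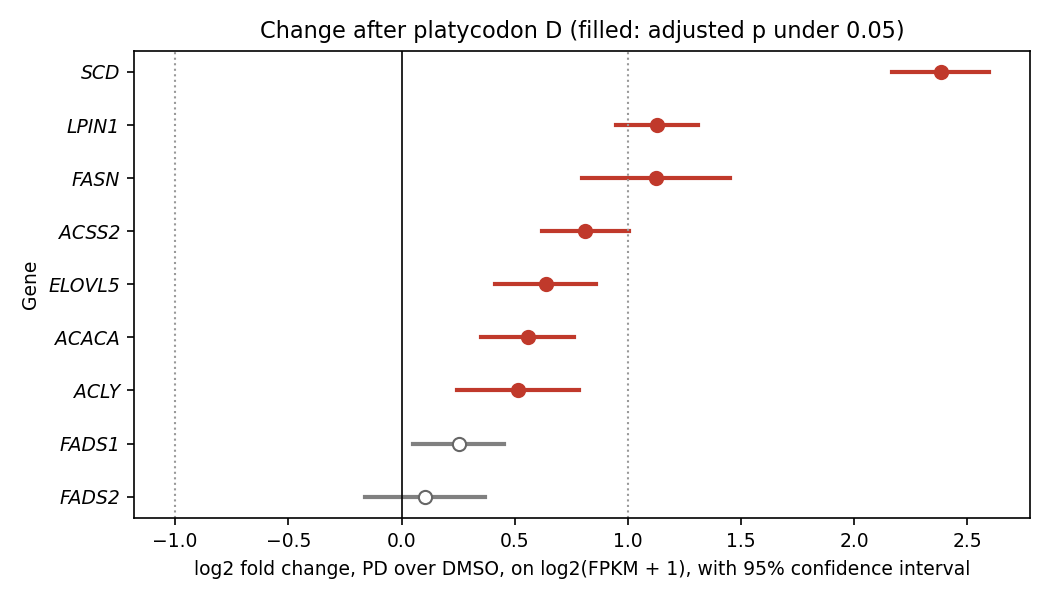
log2 fold change of PD over DMSO on the log2(FPKM + 1) scale for the 9 genes tested, with 95% confidence intervals from limma. Filled points passed at an adjusted p under 0.05, and dotted lines mark a 2-fold change. SCD stood at 2.38, apart from LPIN1 at 1.13 and FASN at 1.12, and the interval of FADS2 spans 0.

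FPKM is per length, so the levels of different genes can be set side by side, with the limit that the authors divided by all annotated exons of a gene, which lowers the level of genes with long rarely used exons. In PD samples the order by mean was SCD, FASN at 88.9, ACLY at 51.0, ELOVL5 at 26.1, ACACA at 21.5, FADS1 at 20.5, LPIN1 at 12.7, ACSS2 at 10.1, FADS2 at 2.38 and ELOVL6 at 0.799 FPKM. ACACA and FADS1 overlapped there, while FASN and ACLY did not. In DMSO samples the order was SCD at 211, FASN at 40.04, ACLY at 35.2, FADS1 at 17.1, ELOVL5 at 16.5, ACACA at 14.3, ACSS2 at 5.34, LPIN1 at 5.25, FADS2 at 2.13 and ELOVL6 at 0.933 FPKM. The ranges of FASN and ACLY overlapped, as did those of FADS1 and ELOVL5 and of ACSS2 and LPIN1. Within each DMSO sample FASN stood above ACLY and FADS1 above ELOVL5, while ACSS2 and LPIN1 changed order between samples. LPIN1 thus stood above ACSS2 in PD samples and level with it in DMSO samples.

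Ratios of a pair of genes within a sample are free of any scaling between samples. An exact two-sided permutation test of 3 against 3 samples cannot go below p = 0.1, so none of the 6 ratios tested could pass, and the values are given with that smallest p. SCD over FASN was 10.6, 13.4 and 13.9 in PD samples, against 5.90, 4.86 and 5.16 in DMSO samples, a log2 difference of 1.24 ± 0.15 (SE, exact p = 0.1, adjusted p = 0.12). The groups did not overlap, and SCD stood higher relative to FASN in every PD sample. ELOVL6 over ELOVL5 was 0.0292, 0.0280 and 0.0342 in PD samples, against 0.0637, 0.0551 and 0.0506 in DMSO samples, a log2 difference of -0.89 ± 0.13 (exact p = 0.1, adjusted p = 0.12). The numerator ELOVL6 lay below the filter and overlapped between groups, while the denominator ELOVL5 rose. Without a pseudocount the log2 ratio of PD to DMSO means was -0.22 for ELOVL6 and 0.67 for ELOVL5. ACSS2 over ACLY was 0.182, 0.210 and 0.209 in PD samples, against 0.165, 0.144 and 0.147 in DMSO samples (log2 difference 0.40 ± 0.09, exact p = 0.1, adjusted p = 0.12). Neither of these ratios overlapped between groups.

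The same held for the ratios of ACACA and LPIN1 to a paralogue outside the genes described. ACACA over ACACB, the carboxylase at the outer mitochondrial membrane, was 16.2, 14.5 and 15.7 in PD samples, against 8.70, 8.003 and 9.60 in DMSO samples (log2 difference 0.82 ± 0.09, exact p = 0.1, adjusted p = 0.12). ACACB itself showed a log2 fold change of -0.14 (adjusted p = 0.402, limma). LPIN1 over LPIN2 was 0.958, 0.956 and 0.964 in PD samples, against 0.426, 0.464 and 0.478 in DMSO samples (log2 difference 1.08 ± 0.05, exact p = 0.1, adjusted p = 0.12). LPIN2 showed a log2 fold change of 0.18 (adjusted p = 0.163, limma; 0.0250 with array weights). FADS1 over FADS2 was 8.23, 7.86 and 10.1 in PD samples, against 8.27, 7.68 and 8.06 in DMSO samples, and overlapped (log2 difference 0.12 ± 0.12, exact p = 0.5).

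**Figure D4:**
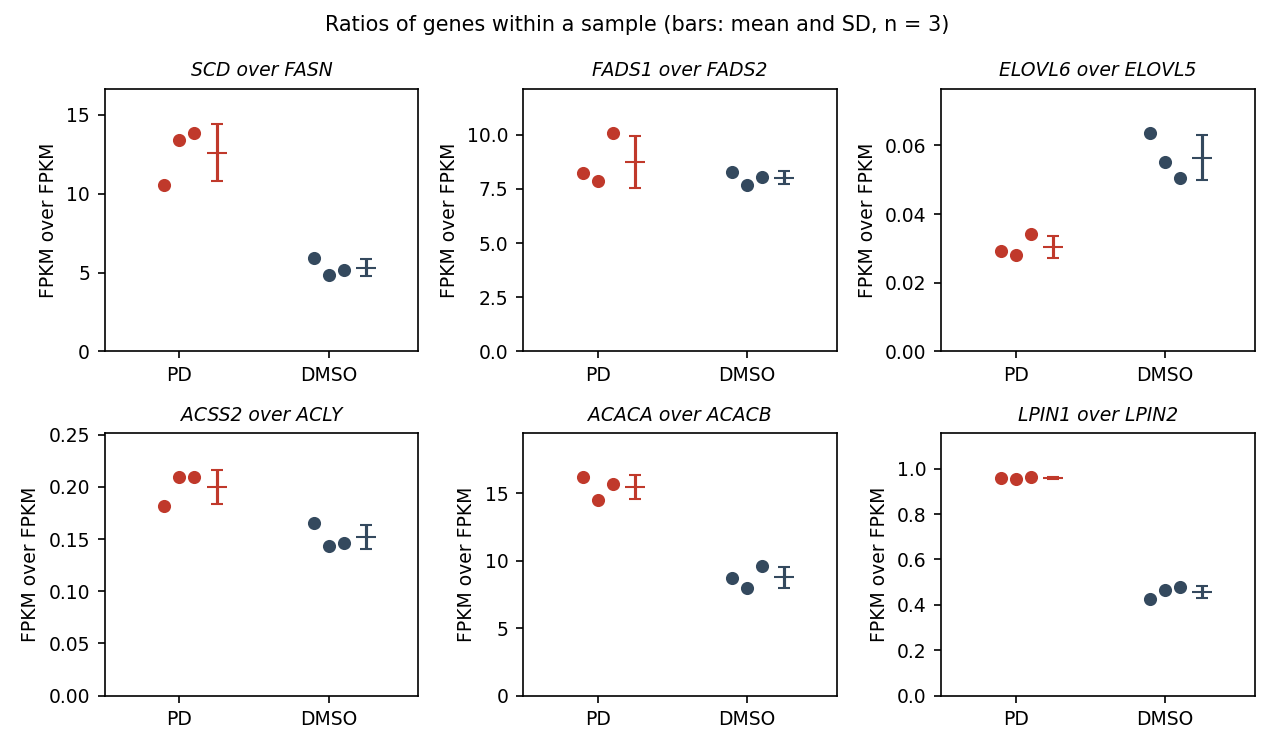
FPKM of one gene over that of another in the same sample, with PD samples left and DMSO samples right in each panel, points for the samples and bars for the mean and SD (n = 3 per group). SCD over FASN, ACSS2 over ACLY, ACACA over ACACB and LPIN1 over LPIN2 were higher in every PD sample, ELOVL6 over ELOVL5 was lower in each, and FADS1 over FADS2 overlapped. ELOVL6 itself lay below the filter on low values.

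The replicates of a group did not vary alike in all genes. Deviations from the group mean on the log2(FPKM + 1) scale reached 0.26 for FASN and 0.21 for ACLY in PD replicate 1, and were -0.09 for ELOVL5 there. In PD replicate 3 they were -0.15 for FASN, -0.12 for ACLY and 0.09 for ELOVL5. Across the 9 genes the Spearman rho of the deviation with transcript GC content was 0.80, -0.32 and -0.88 in PD replicates 1 to 3. In DMSO replicates 1 to 3 it was -0.43, 0.52 and 0.48. These values are a description over genes that share their libraries. Transcript GC was 41.7% for ELOVL5, 47.1% for SCD, 52.2% for ACLY and 65.3% for FASN. After GC correction the count that rose was 8 of 9, with FADS1 added, while over all genes the count that rose went from 1947 to 2932. The count of 8 was also reached without DMSO replicate 1 and PD replicate 3 (2278 over all genes). It was reached too with array weights (3189 over all genes) and without DMSO replicate 1 alone (1861).

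Each count in the lists that follow stands beside 14.3% of all genes tested that rose and 12.7% that fell, and several are near those shares. Of 19 regulators of lipogenic transcription, 18 were tested, 5 rose and 0 fell, with a median log2 fold change of 0.08. INSIG1, which retains the SREBP complex in the endoplasmic reticulum, had 67.9, 64.4 and 73.4 FPKM in PD samples, against 7.62, 7.47 and 7.84 FPKM in DMSO samples. The groups were far apart, and the log2 fold change of INSIG1 was 3.01 ± 0.08 (adjusted p = 1.24e-05, limma). SREBF2, which encodes the SREBP most tied to sterol genes, had 122, 111 and 104 FPKM in PD samples, against 51.1, 56.8 and 58.0 FPKM in DMSO samples (log2 fold change 1.01 ± 0.10, adjusted p = 0.000771, limma). SREBF1, which encodes the SREBPs most tied to fatty acid genes and is named after its value was seen, had 50.1, 44.3 and 42.0 FPKM in PD samples, against 27.1, 33.1 and 32.8 FPKM in DMSO samples. All PD samples of SREBF1 were higher, and its log2 fold change was 0.54 ± 0.11 (adjusted p = 0.0133, limma; 0.0569 with equal FPKM totals). PPARGC1B, a coactivator, and NFYA, a subunit of NF-Y, rose by 0.57 and 0.50 on the log2 scale (adjusted p = 0.00504 and 0.00646, limma). The other 13 tested regulators did not pass. Among them were the NF-Y subunits NFYB and NFYC, at 0.02 and -0.004 (adjusted p = 0.947 and 0.980, limma). SCAP and INSIG2 stood at -0.27 and -0.30 (adjusted p = 0.132 and 0.233, limma).

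Of 17 desaturases and elongases beyond the 10 and their partners, 12 were tested, 3 rose and 2 fell, with a median of 0.15, beside 14.3% and 12.7% of all genes. ELOVL7, an elongase of long saturated chains, had 10.6, 13.3 and 14.6 FPKM in PD samples, against 3.80, 2.97 and 2.65 FPKM in DMSO samples. The groups were far apart, and ELOVL7 showed a log2 fold change of 1.74 ± 0.15 (adjusted p = 0.000496, limma). SCD5, the second human stearoyl-CoA desaturase, moved against SCD: it had 3.67, 3.14 and 3.75 FPKM in PD samples, against 5.54, 4.99 and 4.95 FPKM in DMSO samples. SCD5 showed a log2 fold change of -0.45 ± 0.10 (adjusted p = 0.0152, limma; 0.063 without PD replicate 2). ELOVL1 rose by 0.41 (adjusted p = 0.0155, limma), but not without PD replicate 2 or DMSO replicate 2 (adjusted p = 0.0666 and 0.0516), with equal FPKM totals (0.0836) or with recovered read totals (0.0653). CYB5R1, a relative of the reductase that feeds electrons to desaturases, rose by 0.42 (adjusted p = 0.0171, limma), but not without PD replicate 1 or 2 or DMSO replicate 3 (adjusted p = 0.059, 0.0502 and 0.0714) or with equal FPKM totals (0.0555). HACD1, a hydroxyacyl-CoA dehydratase of the elongation cycle named after its value was seen, fell by 0.65 (adjusted p = 0.0248, limma), but did not pass with no filter on low values (0.075) or without PD replicate 1 or 2 or DMSO replicate 1 or 3 (adjusted p = 0.0634, 0.0732, 0.0517 and 0.0567).

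**Figure D5:**
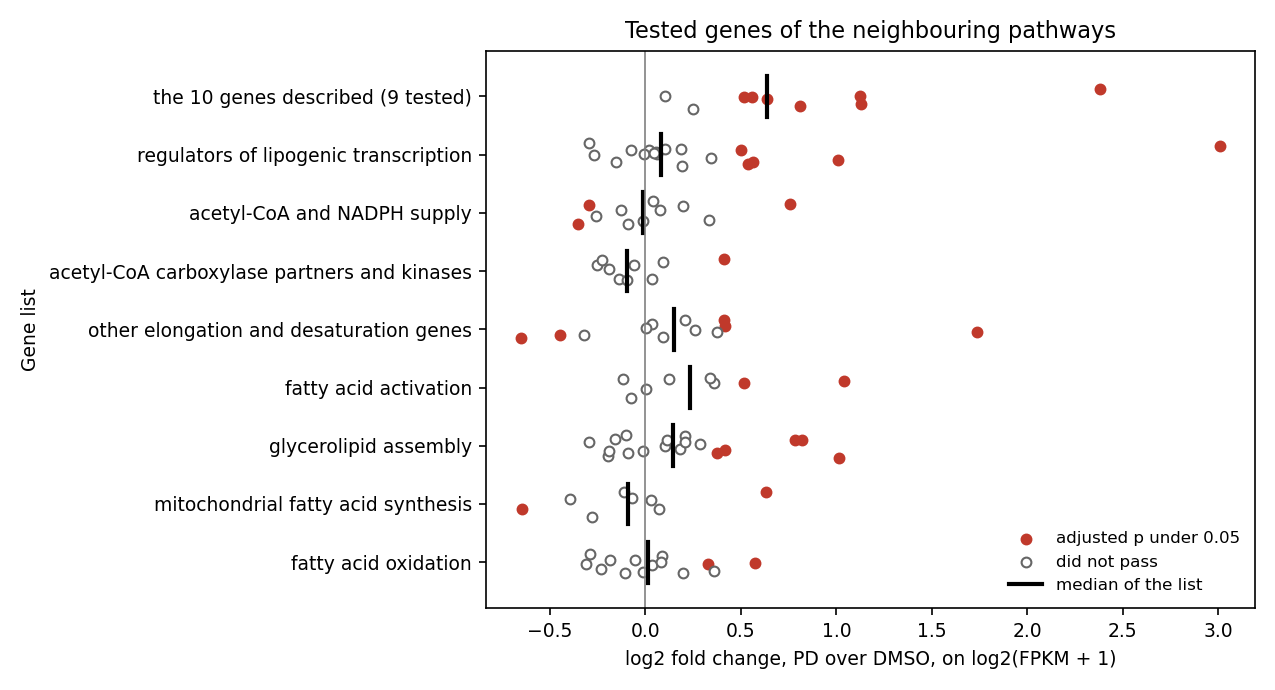
log2 fold change of PD over DMSO on the log2(FPKM + 1) scale for each tested gene of the lists named on the vertical axis; filled points passed at an adjusted p under 0.05 and bars are medians. The median of the genes described here was 0.64, and those of the other lists lay between -0.10 and 0.23. The genes and lists were chosen with earlier results of these data known.

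Of 21 glycerolipid genes 18 were tested, 5 rose and 0 fell, with a median of 0.15, beside 14.3% of all genes that rose and 12.7% that fell. AGPAT4 and AGPAT5, acyltransferases of the lysophosphatidate step, rose by 1.02 ± 0.12 and 0.82 ± 0.14 on the log2 scale (adjusted p = 0.00149 and 0.00597, limma). PNPLA3, a lipid droplet enzyme, rose by 0.78 ± 0.11 (adjusted p = 0.00354, limma). PCYT1A, of phosphatidylcholine synthesis, rose by 0.38 (adjusted p = 0.0106, limma; 0.0512 without DMSO replicate 2 and 0.0562 with equal FPKM totals). GPAT3, the glycerol phosphate acyltransferase named after its value was seen, rose by 0.42 (adjusted p = 0.0107, limma; 0.0522 without DMSO replicate 2). In the fatty acid activation list 8 of 13 were tested, 2 rose and 0 fell, with a median of 0.23, which on 8 genes is near the shares of all genes. DBI, which binds acyl-CoA, had 12.8, 11.1 and 8.67 FPKM in PD samples, against 4.13, 5.00 and 5.06 FPKM in DMSO samples, and rose by 1.04 ± 0.15 (adjusted p = 0.003, limma). ACSL3, an acyl-CoA synthetase of lipid droplets, rose by 0.52 (adjusted p = 0.0183, limma), but not without PD replicate 2 or DMSO replicate 2 or 3 (adjusted p = 0.056, 0.0676 and 0.0647).

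Of 13 genes of acetyl-CoA and NADPH supply 11 were tested, 1 rose and 2 fell, with a median of -0.01, near the shares of all genes. ACAT2, which condenses acetyl-CoA for sterol synthesis, rose by 0.76 ± 0.10 (adjusted p = 0.00231, limma). IDH1, a source of cytosolic NADPH, showed a log2 fold change of -0.35 (adjusted p = 0.042, limma), but did not pass without PD replicate 1 or 2 or DMSO replicate 2 or 3 (adjusted p = 0.113, 0.145, 0.115 and 0.142). PDHB, a pyruvate dehydrogenase subunit, stood at -0.30 (adjusted p = 0.0385, limma) and missed the threshold without any single replicate (0.0549 to 0.137). Among 11 partners and kinases of acetyl-CoA carboxylase 9 were tested, 1 rose and 0 fell, with a median of -0.10. The one was PRKAG2, a subunit of the AMP-activated kinase, at 0.41 (adjusted p = 0.0392, limma), which did not pass without PD replicate 2 or 3 or DMSO replicate 2 or 3 (adjusted p = 0.0933, 0.0784, 0.115 and 0.124).

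Mitochondrial fatty acid synthesis, a separate route that makes lipoate precursors, had 8 of 9 genes tested, with 1 that rose, 1 that fell and a median of -0.09. LIPT1, a lipoyl transferase, rose by 0.63 ± 0.12 (adjusted p = 0.0102, limma). CBR4, a subunit of its ketoacyl reductase, showed a log2 fold change of -0.65 (adjusted p = 0.0315, limma), but did not pass without PD replicate 1 or 2 or DMSO replicate 1 or 3 (adjusted p = 0.0912, 0.107, 0.0537 and 0.060). In the fatty acid oxidation list 14 of 15 were tested, 2 rose and 0 fell, with a median of 0.01, beside 14.3% of all genes that rose. HADHA, a subunit of the mitochondrial trifunctional protein, rose by 0.57 ± 0.08 (adjusted p = 0.00266, limma). ETFDH, which passes electrons on from acyl-CoA dehydrogenases, stood at 0.33 (adjusted p = 0.0411, limma) and missed the threshold without any single replicate but DMSO replicate 1 (0.0672 to 0.145). With no filter on low values, which adds genes to the adjustment, ACSL3, PDHB, IDH1, PRKAG2, CBR4 and ETFDH also missed the threshold (adjusted p = 0.0502, 0.0678, 0.0819, 0.0931, 0.0936 and 0.0782). PRKAG2 and ETFDH missed it with equal FPKM totals (0.0815 and 0.144) and with recovered read totals (0.0586 and 0.0835), and IDH1 after GC correction (0.0553). With the replicate number fitted as a block, SREBF1, SCD5, ELOVL1, CYB5R1 and HACD1 missed it (adjusted p = 0.0634, 0.0609, 0.0656, 0.0779 and 0.0792, limma). So did PCYT1A, GPAT3, ACSL3 and CBR4 (0.0689, 0.0594, 0.0690 and 0.0697). IDH1, PDHB, PRKAG2 and ETFDH missed it there too (0.0922, 0.136, 0.118 and 0.133).

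The pattern shared by the 9 tested genes, the mean of their values set to mean 0 and SD 1 over the 6 samples, was compared with 7922 other genes whose mean reached 5 FPKM in one of the groups. The 6 most like it were OTUD3, JOSD1, SLC39A7, OPA3, TBC1D20 and FOSL2, with Pearson correlations of 0.997 to 0.999, and the 3 most opposed were PTTG1, ARG2 and ZNF853 (-0.997 to -0.998). These are descriptions over 6 samples that fall into 2 groups and share their libraries, so a high value mostly restates the difference between groups. JOSD1, a deubiquitinase, had 43.5 ± 2.84 FPKM in PD and 27.3 ± 0.540 FPKM in DMSO samples, and OTUD3, another deubiquitinase, had 12.3 ± 1.08 FPKM in PD and 7.25 ± 0.190 FPKM in DMSO samples (SD, n = 3 each).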

How the data were processed

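Per the labels' protocols, RNA of 6 AZ-521 samples was made into stranded mRNA libraries and read as pairs on a HiSeq. The authors deposited FPKM values per gene, with no aligner or counting program named in the sources used here. Mouse builds (GRCm38, mm10) stand in the submitters' processing notes, yet all 58735 identifiers, positions and lengths equal human GENCODE 29 (GRCh38), each length being that of the merged exons. FPKM times this length gave whole reads for 100% of values within 0.01 read, and depth is the sum of these reads. The authors' FPKM denominator differs from that sum by sample, and how it was set is not given. For 27 genes, names turned into dates were restored. Columns were assigned to samples by their labels.

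Group differences (PD minus DMSO) were fitted in R 4.3.3 by limma 3.58.1 on log2 of FPKM plus a pseudocount of 1, which understates the change of low genes, with a mean-variance trend and two-sided tests. Adjustment ran over 13579 genes with at least 1 FPKM in at least 3 samples. "Rose" and "fell" stand for an adjusted p under 0.05, and "called" also needs a 2-fold change. Ratios were tested by exact permutation in scipy 1.17.1. The fits were tested on simulated reads. Alternatives were the pseudocount (0.1), the filter, the scaling, array weights, voom on recovered reads, recovered read totals (added after seeing the data), the replicate block, GC correction (loess, span 0.3) and left-out samples. The genes and lists were chosen with earlier results of these data known. Named in each list were up to 4 genes that passed, by smallest adjusted p, and ratio partners. Those that did not pass are otherwise given as counts, except NFYB, NFYC, SCAP and INSIG2, named after their values were seen. The most alike genes were taken by correlation. Promoter sequences are from RefSeq.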

Additional observations from a re-analysis of the deposited data

How the results depend on the processing

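Across 18 alternatives 6 to 8 of the genes described rose and 0 fell, and 3 were at least 2-fold higher, except with equal FPKM totals (1, SCD) and without PD replicate 1 (2). ACSS2, ACACA, FASN, SCD, ELOVL5 and LPIN1 kept direction and adjusted p under 0.05 in all 18. ACLY lost its call in 4, FADS1 gained one in 4, and FADS2 turned negative in 1 (-0.0057 with equal FPKM totals). That scaling moved the median of all genes by -0.13. Over all genes, 1947 rose and 1731 fell as deposited, with 386 higher and 133 lower by at least 2-fold. The 2-fold counts were 626 higher and 336 lower with a pseudocount of 0.1, and 662 higher and 372 lower with voom. At a minimum mean of 5 FPKM 1254 rose and 960 fell, with 227 higher and 77 lower by 2-fold. With no filter 1075 fell. With equal FPKM totals 1290 rose and 3158 fell, with 280 higher and 248 lower by 2-fold, so that 53.0% of the 2-fold calls were higher, against 74.4% as deposited. With FPKM rescaled to recovered read totals, chosen after seeing the data, 1407 rose and 2812 fell, with 302 higher and 213 lower by 2-fold, so that 58.6% were higher. Median ratio scaling gave 1960 genes that rose and 1773 that fell, with 385 higher and 133 lower by 2-fold. With array weights 3189 rose and 3112 fell, and after GC correction 2932 rose. Without DMSO replicate 1 and PD replicate 3, 2278 rose and 2110 fell. Leaving out 1 replicate gave 1049 to 1861 genes that rose, 868 to 1649 that fell, 283 to 396 called higher and 112 to 161 called lower. The cause of these shifts was not tested. The deviations of same-numbered samples from their group means had correlations of -0.39, 0.17 and -0.16. Because the libraries differ in how they vary with GC content, these values cannot decide whether the numbers pair the samples. With the replicate block 1089 genes rose and 755 fell, and 6 of the genes described rose, without ACLY (adjusted p = 0.0713). For the ratios, leaving out 1 of 3 samples cannot move the group difference by more than the spread between replicates. That check therefore says nothing about how stable they are. ELOVL6 rests on 80 to 127 reads a sample.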
